A study of Drosophila melanogaster with 10 samples.

Results

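The yellow genes of Drosophila melanogaster form a small family of related secreted proteins, and 10 of them were followed here: y itself and yellow-b, yellow-c, yellow-d, yellow-d2, yellow-e, yellow-e3, yellow-f, yellow-h and yellow-k. They were chosen by name from the 15422 genes of 1 expression table, after y had been seen to stand higher in every dacapo genotype than in the control. The comparison with the control is therefore given for the members as a description, with no test. The samples were whole embryos of stages 15 to 16, kept at 25 °C, and the polyA RNA was sequenced in 50-base single reads. All genotypes carried the driver pros-Gal4, which uses the promoter region of prospero, a gene of neural precursors and glia. Control embryos had this driver over a wild-type chromosome (pros-Gal4/+). The other 4 genotypes added a UAS transgene encoding dacapo, the fly inhibitor of cyclin-dependent kinases of the p21/p27 family. The transgene was wild type (dap) or 1 of 3 other forms (dapCRL4, dapPCNA and dapCDI). The sample titles give only these names, and the 3 are called stabilized forms here. Each genotype had 2 libraries, described as independent samples. The sources used here do not say how many embryos went into a sample, whether samples came from separate crosses, or in which strain each transgene was kept. The p-values therefore measure the spread between these libraries, which may be in part technical.

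The family is named after y, whose loss turns the black pigment of the fly cuticle yellow-brown. Yellow proteins are related to the major royal jelly proteins of the honey bee. Melanin is made from tyrosine through dopa and dopamine, which are oxidised and polymerised in the cuticle, and Yellow is secreted by epidermal cells where black melanin will form. yellow-f and its neighbour yellow-f2 encode dopachrome-conversion enzymes, which speed a step of melanin formation. In the silkworm Bombyx mori, yellow-e affects larval colour. The last stages of embryogenesis are those in which the first larval cuticle is built and its mouth hooks and denticles darken.

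Values are RPKM, reads per kilobase and megaread, which the authors deposited as log2. Depth, recovered from genes with few reads, was 17.05 to 25.76 megareads counted per library. The median replicate difference over tested genes was 0.0909 to 0.171 on the log2 scale. The transgene's own gene, dap, measured 70.5 and 70.7 RPKM in controls. The dapCDI libraries gave 170 and 156 RPKM for it, against 85.8 and 83.4 with wild-type dap, 81 and 75.7 in dapCRL4 and 70.7 and 73.3 in dapPCNA. The difference from the control passed limma's test in dap (log2 0.26, adjusted p = 0.0405) and dapCDI (1.21, 2.28e-05), but not in dapCRL4 (0.15, 0.319) or dapPCNA (0.03, 0.918), so the dap level does not check the labels of these last genotypes. Markers of neurons, glia, epidermis, muscle and trachea were detected in every library. In whole embryos, fewer cells of a type and less RNA per cell cannot be told apart.

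The gene y (FBgn0004034; BDGP6, chromosome X, 356509 to 361245, plus strand) has 2 exons and lies inside an intron of CG32816, which is read from the other strand. The exons of these genes do not overlap. In the control, y stood at 0.119 and 0.195 RPKM, which corresponds to 5 and 8 reads. In dap it stood at 2.54 and 1.91 RPKM, from 86 and 65 reads. In dapCRL4 it stood at 2.69 and 2.51 RPKM, from 87 and 92 reads. All 8 dacapo libraries therefore lay above both control libraries, and the groups were far apart. In dapPCNA the values were 2.18 and 2.89 RPKM, from 76 and 83 reads, and in dapCDI they were 3.24 and 3.28 RPKM, from 90 and 106 reads. The 95% Poisson intervals of the control values reached at most 0.384 RPKM, and those of the dacapo libraries started at 1.47 RPKM. These intervals cover counting error only, since reads without molecular identifiers are not independent molecules.

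Mean y levels were 0.157 RPKM ± 0.0533 in the control (SD, n = 2), 2.23 ± 0.45 in dap, 2.54 ± 0.499 in dapPCNA, 2.60 ± 0.125 in dapCRL4 and 3.26 ± 0.0237 in dapCDI. The libraries of dap, dapPCNA and dapCRL4 overlapped, so these neighbours in the order did not differ beyond their spread. Both dapCDI libraries lay above all others. On the log2 scale, the difference from the control was 3.85 with wild-type dap, 4.09 for dapCRL4, 4.04 for dapPCNA and 4.42 for dapCDI. The same 2 control libraries stand behind all 4 differences, which makes them dependent. y passed the filter for testing, at least 1 RPKM in at least 2 libraries, only through the dacapo genotypes. Transgene and fly line go together in this design, so an effect of the transgene on y and a difference between the parental lines cannot be told apart.

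**Figure D1:**
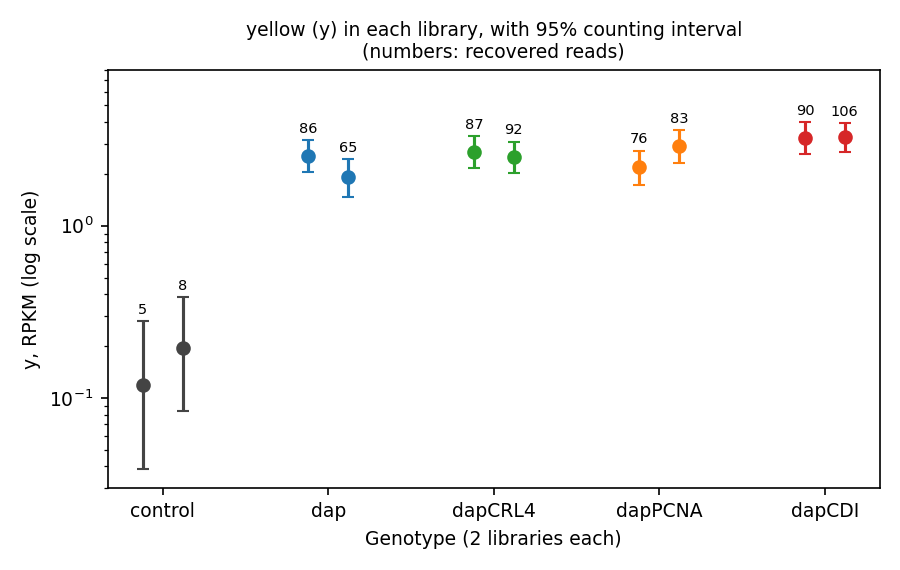
Level of y in each of the 10 libraries (RPKM, log axis), by genotype, with points for libraries and vertical lines for 95% Poisson intervals from the recovered reads. The 2 control libraries sit at 0.119 and 0.195 RPKM, and the 8 dacapo libraries between 1.91 and 3.28 RPKM.

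The other members fell into a high, a middle and a low tier, and the tiers were the same in all genotypes. The most abundant was yellow-c (chromosome 2L, 15035394 to 15037841), whose libraries read 159 and 138 RPKM for the control, 171 and 179 for dap, 153 and 160 for dapCRL4, 167 and 164 for dapPCNA, and 141 and 139 for dapCDI. It made up 47.4 to 51.8% of the summed RPKM of the 14 listed yellow genes, members or not, in every library. yellow-d (2R, 23378573 to 23380438) was highest with wild-type dap, at 75.4 and 72.2 RPKM. It read 61.4 and 63.3 RPKM for dapPCNA, 59.2 and 63.2 for the control, 55.8 and 54.7 for dapCRL4, and 50.8 and 47.6 for dapCDI. Its dap libraries lay above the other 8, and its dapCDI libraries lay below them. yellow-b (2L, 16754336 to 16758283) varied least, between 36.1 and 41.3 RPKM. yellow-h (chromosome 4, 227922 to 230428) lay between 29.5 and 42.3 RPKM, with the lowest value in a control and the highest in a dapCRL4 library. Exons of yellow-b, yellow-c and yellow-h overlap a gene of the opposite strand, and since the strand setting of the counting is not given, reads of the partner may be included. yellow-d and yellow-d2 lie within CG13551, which is read from the other strand, without exon overlap. CG13551 read 452 and 451 RPKM for the control, 575 and 592 for dap, 497 and 521 for dapCRL4, 475 and 509 for dapPCNA, and 613 and 515 for dapCDI. Whether its reads enter the yellow-d values was not tested.

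The middle tier held yellow-d2, yellow-e and yellow-e3. yellow-d2 (2R, 23381197 to 23382591), the next gene after yellow-d, stood at 6.55 and 6.71 RPKM in the control and between 6.67 and 8.73 RPKM in the dacapo libraries. Both libraries of dapCRL4 (7.31 and 8.14 RPKM), dapPCNA (7.09 and 8.32) and dapCDI (8.38 and 8.73) lay above both controls, and so did 1 dap library, while the other, at 6.67 RPKM, did not. yellow-e (3R, 13409543 to 13415286) lay between 2.21 and 3.34 RPKM, and yellow-e3 (3R, 13403423 to 13404870) between 1.76 and 3.19 RPKM. For yellow-e3 the control libraries were themselves apart, at 2.15 and 3.19 RPKM, and the dapCRL4 libraries were lowest, at 1.76 and 1.95 RPKM.

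The low tier was yellow-f, yellow-k and, in the control, y. yellow-f (3R, 12991449 to 12993201) stood at 0.873 and 0.775 RPKM in the control and between 0.5 and 1.09 RPKM in the dacapo libraries. Its dapCDI libraries were far apart, at 0.5 and 1.09 RPKM from 11 and 28 reads, and an exon overlap with CG31342 leaves some of its reads uncertain. yellow-k (3L, 15520620 to 15521653) was listed at 0 in 4 libraries, 1 each of control, dap, dapPCNA and dapCDI, and reached 0.491 RPKM at most. It overlaps the antisense RNA asRNA:CR43159, its recovered reads were not whole numbers, and it did not pass the filter, so 9 of the 10 members were tested.

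Across the 10 libraries, the highest value of y was 27.5 times its lowest, against 1.14 times for yellow-b and 2.19 times for yellow-f, the least and the most variable of the other 8 tested members. Differences of these 8 members from the control ran from −0.50 on the log2 scale, for yellow-e3 in dapCRL4, to 0.37, for yellow-d2 in dapCDI. In the rank order of mean levels among the 10 members, y was 9th in the control, 8th in dap, 7th in dapPCNA and 6th in both dapCRL4 and dapCDI. Its share of the summed RPKM of the 14 yellow genes was 0.0386 and 0.0672% in the control libraries and 0.543 to 1.12% in the dacapo libraries.

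**Figure D2:**
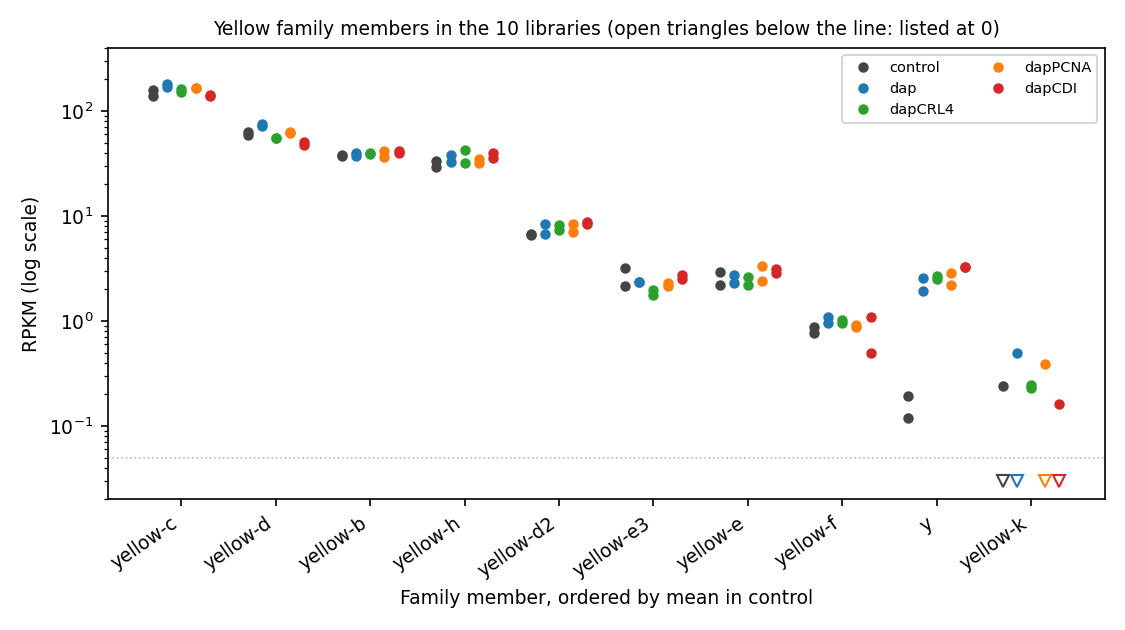
Level of each of the 10 members in every library (RPKM, log axis), with 1 point per library coloured by genotype and open triangles for libraries in which a gene is listed at 0. y shows a gap between the control and the dacapo points, from 0.195 to 1.91 RPKM, while yellow-b stays between 36.1 and 41.3 RPKM.

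Libraries of a dacapo genotype did not overlap with the control libraries for 4 of the 9 tested members with dap (63.7% of all 10396 tested genes), 6 with dapCRL4 (53.7%), 3 with dapPCNA (49.1%) and 5 with dapCDI (59.1%). Nothing is read from these counts, since the members were chosen on this contrast.

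The stabilized forms were compared with wild-type dap, a contrast that did not choose the members. Here yellow-d fell in dapCDI, from 75.4 and 72.2 RPKM in dap to 50.8 and 47.6 RPKM, and it was the 1 member of 9 that passed the test. Both dapCDI libraries lay below both dap libraries. The log2 difference was −0.58 (SE 0.07, 95% interval −0.74 to −0.43), or 1.5-fold lower, with a limma adjusted p of 0.0269 after Benjamini-Hochberg adjustment over all tested genes. In this comparison 0.144% of all tested genes were called, 15 genes, which became 1 to 36 when single libraries were left out. The adjusted p ranged from 0.00921 to 0.292 over the alternatives, and the call was lost without either dap library (0.115 and 0.0713), without either dapCRL4 library (0.0545 and 0.0534), without either dapPCNA library (0.0722 and 0.0699), without a mean-variance trend (0.0813) and when just the dapCDI and dap libraries were fitted (0.292). In dapCRL4 the yellow-d difference from dap was −0.42 (95% interval −0.57 to −0.26, limma adjusted p = 0.0558). In dapPCNA it was −0.24 (−0.40 to −0.09, adjusted p = 0.0965). Neither passed the threshold, but the dapCRL4 difference did so under 8 other settings of scale, filter or normalization and without either dapCDI library, with adjusted p from 0.0333 to 0.0479. The dapPCNA difference did so without dapCDI 1 (0.0471) and without dapCDI 2 (0.047).

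yellow-c differed from dap in dapCDI by −0.33 (95% interval −0.49 to −0.16, limma adjusted p = 0.158) and did not pass. Levels of y differed from dap by 0.24 in dapCRL4 (95% interval −0.43 to 0.90, adjusted p = 0.715), 0.19 in dapPCNA (−0.48 to 0.85, adjusted p = 0.719) and 0.57 in dapCDI (−0.10 to 1.23, adjusted p = 0.574). These intervals leave room for differences of either sign, so they do not show that y was equal in the 4 dacapo genotypes. None of 9 members was called in dapCRL4 or in dapPCNA against dap (background 0.164% and 1.33%, or 17 and 138 genes, which became 1 to 66 and 14 to 750 when single libraries were left out). At an unadjusted p under 0.05, limma gave 1 member in each (background 14.7% and 24%) and 2 in dapCDI (background 10.4%). Libraries did not overlap with those of dap for 3 members in dapCRL4, 4 in dapPCNA and 6 in dapCDI, against 50%, 59.9% and 32.5% of all tested genes.

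Among the 3 stabilized forms, limma's moderated F test called none of the 9 members, where 0.135% of all genes were called (14, and 6 to 231 without single libraries), and 2 members had an unadjusted p under 0.05 (background 12.2%). The adjusted p was 0.701 for y and 0.239 for yellow-d, whose means were 55.2 RPKM in dapCRL4, 62.3 in dapPCNA and 49.2 in dapCDI. With a trend on exon length removed, yellow-d passed this test too, with an adjusted p of 0.0396.

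**Figure D3:**
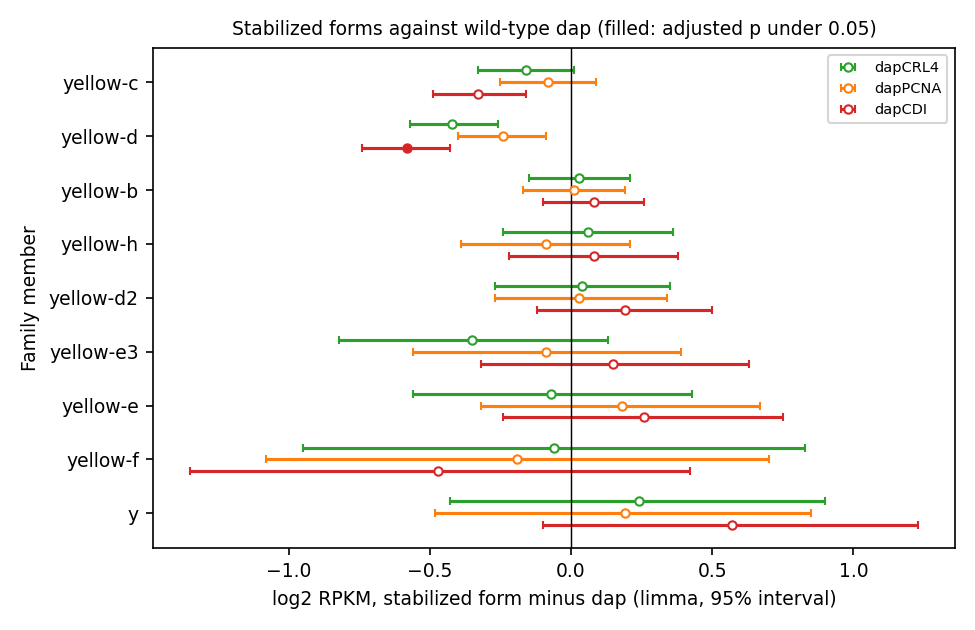
Log2 differences of the 9 tested members between each stabilized form and wild-type dap, with 95% intervals from the limma fit, where filled points mark an adjusted p under 0.05. yellow-d in dapCDI, at −0.58, is the filled point, and the y intervals all include 0.

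The genes around y on the X chromosome were compared with y itself, taking the 5 nearest listed genes on each side. Sides were set by the lower coordinate of each gene, although CG32816 spans y. Of these 10, 4 passed the filter (CG32816, yar, l(1)sc and ase). None of the 4 was called by limma against the control in dap, dapCRL4, dapPCNA or dapCDI, beside 11.8%, 1.45%, 1.3% and 7.56% of all genes. None had an unadjusted p under 0.05 (background 32.8%, 16.1%, 11.3% and 31.2%). With 4 genes, these counts do not show whether the difference was confined to y. The log2 differences of these 4 genes ran from −0.28 to 0.21. CG32816, whose intron holds y, lay between 71 and 87.2 RPKM in all libraries. yar, the noncoding RNA gene that starts next downstream of y (362399), lay between 8.84 and 17.4 RPKM, and CG43182, the nearest gene upstream (353067), was listed at 0 in every library.

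On log2(RPKM + 0.1), which takes in genes near 0, differences from the control ran from −1.11 to 1.26 over all 10 neighbours and from 3.18 to 3.72 for y. The highest neighbour value belonged to Or1a, an odorant receptor gene that starts at 315123, beyond the end of CG32816 on the side away from yar. It stood at 0.0988 and 0.369 RPKM in the control and between 0.427 and 0.672 RPKM in the dacapo libraries, and it was too low to be tested.

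**Figure D4:**
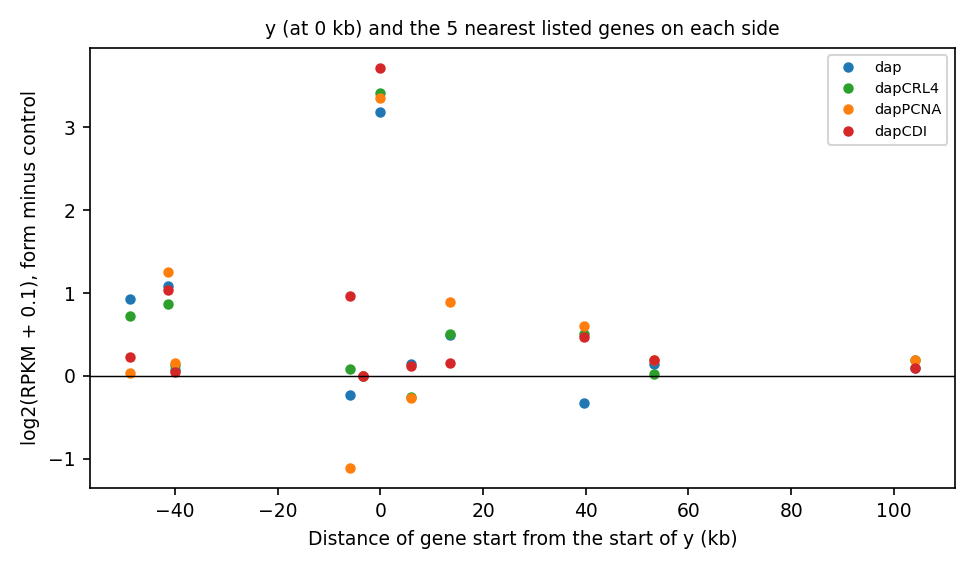
Log2(RPKM + 0.1) differences of the 4 dacapo forms from the control for y and the 10 nearest listed genes, against the distance of their lower coordinate from that of y in kb. CG32816, which spans y and is read from the minus strand, is thus placed at −39.9 kb. The y points lie between 3.18 and 3.72, and those of the neighbours between −1.11 and 1.26.

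The rest of the melanin pathway was followed through 18 genes of melanin and cuticle sclerotization, of which 17 were tested. In dap, 1 of them rose and 1 fell, against 8.53% and 3.27% of all tested genes called in these directions and 11.8% in either. amd, a relative of dopa decarboxylase needed for cuticle formation, rose from 203 and 198 RPKM in the control to 248 and 234 RPKM, a log2 difference of 0.27 (limma adjusted p = 0.0272). ple, the tyrosine hydroxylase that starts dopamine and melanin synthesis, fell from 109 and 116 RPKM to 97.7 and 74.8 RPKM, a log2 difference of −0.40 (adjusted p = 0.0433). For ple the second dap library lay well below the first, and without it the difference was −0.20 (adjusted p = 0.187). With all libraries kept, ple was not called with no filter (limma adjusted p = 0.143), without the exon length trend (0.0595) or without a mean-variance trend (0.0966). The same held with only the groups compared (0.0929) and with a replicate block (0.0521). amd was not called without a mean-variance trend (0.0697). Leaving out single libraries gave −0.59 to −0.20 for ple and 0.22 to 0.31 for amd, and most of these fits lost the call.

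In dapCRL4, dapPCNA and dapCDI none of the 17 genes was called against the control by limma, where 1.45%, 1.3% and 7.56% of all genes were called, with 4, 1 and 7 at an unadjusted p under 0.05, against 5 in dap. The background at that unadjusted threshold was 32.8% of all genes for dap, 16.1% for dapCRL4, 11.3% for dapPCNA and 31.2% for dapCDI. Median log2 differences of the list from the control were 0.14 (dap), 0.11 (dapCRL4), 0.10 (dapPCNA) and 0.19 (dapCDI), beside 0.06, 0.04, 0.00 and 0.04 over all genes. Without dapCDI 2, 7 of the genes were called in dapCDI, where the count over all genes went from 786 to 2604. Between the stabilized forms and dap none was called (background 0.164%, 1.33% and 0.144%), with 1, 4 and 2 at an unadjusted p under 0.05 in dapCRL4, dapPCNA and dapCDI (background 14.7%, 24% and 10.4%).

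**Figure D5:**
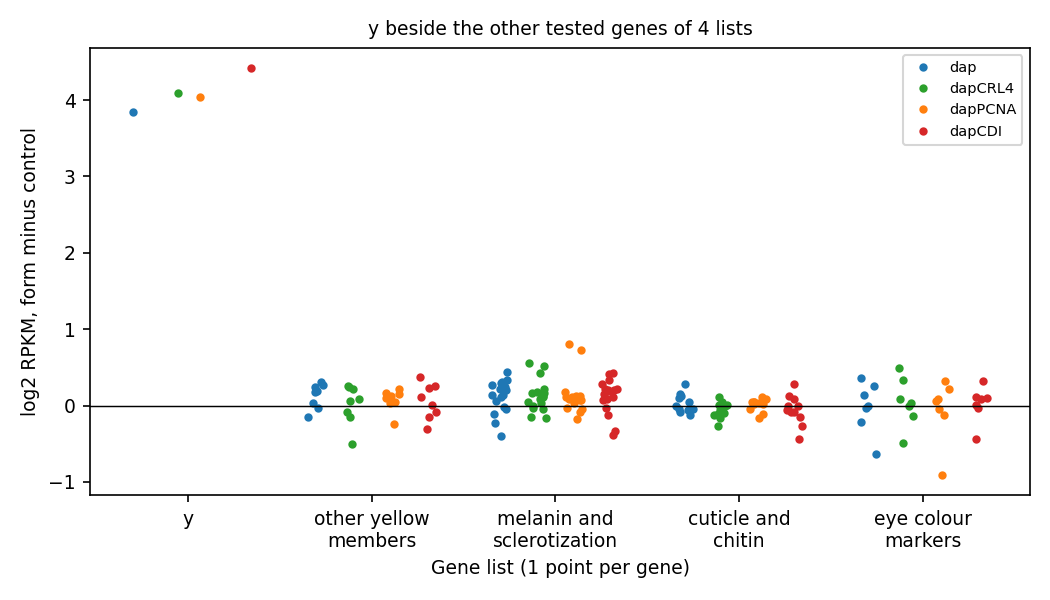
Log2 differences from the control for y, the other tested members, the melanin and sclerotization genes, the cuticle and chitin genes and the eye colour genes, with 1 point per tested gene, coloured by dacapo form. The y points lie between 3.85 and 4.42, and the other members between −0.50 and 0.37.

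Other genes were read beside y because they mark the genetic background or the stage of the epidermis. Of 8 eye colour genes used as strain and transgene markers, 7 were tested. None was called by limma in dap, dapCRL4, dapPCNA or dapCDI, beside 11.8%, 1.45%, 1.3% and 7.56% of all genes. At an unadjusted p under 0.05 there were 3, 3, 3 and 1 in dap, dapCRL4, dapPCNA and dapCDI, beside 32.8%, 16.1%, 11.3% and 31.2% of all genes. The white gene w, the usual marker of transgene vectors, stood at 48.9 and 49.6 RPKM in the control and between 45 and 55.1 RPKM in the dacapo libraries, with dapPCNA, at 45 and 45 RPKM, just below the control and dapCDI, at 55.1 and 50.9 RPKM, just above it. Libraries of 5, 4, 4 and 4 of the 7 genes did not overlap with the control in dap, dapCRL4, dapPCNA and dapCDI. Over all tested genes that share was 63.7%, 53.7%, 49.1% and 59.1%, and the 4 comparisons share 2 control libraries. In every form, cn, v and ry separated from the control without passing the test, and w, bw, st and car did not separate in every form. ry stood at 11.5 and 11.1 RPKM in the control and between 11.8 and 14.3 RPKM in the dacapo libraries. cn, a gene of brown eye pigment, stood at 4.12 and 3.67 RPKM in the control and between 1.88 and 3.4 RPKM in the 8 dacapo libraries, with log2 differences of −0.63 (dap), −0.49 (dapCRL4), −0.91 (dapPCNA) and −0.44 (dapCDI) and limma adjusted p of 0.0654, 0.272, 0.0723 and 0.168. v, of the same pigment pathway, stood at 8.61 and 7.81 RPKM in the control and between 8.81 and 11.9 RPKM in the dacapo libraries, with differences of 0.32 to 0.49 and adjusted p of 0.114 to 0.435. The 11 genes of cuticle and chitin assembly gave no call against the control either, with 1, 0, 0 and 4 at an unadjusted p under 0.05, beside the same shares of all genes. Their summed level was 4707 and 4826 RPKM in the control and 4308 to 4856 RPKM in the dacapo libraries. The sum follows mainly its most abundant genes, such as verm, at 1949 and 1931 RPKM in the control. Single log2 differences of the 11 genes ran from −0.44 to 0.28 in dapCDI.

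Among 13 marker genes, which include dap, 12 were tested. Against the control, limma called 3, 0, 0 and 4 of them in dap, dapCRL4, dapPCNA and dapCDI, beside 11.8%, 1.45%, 1.3% and 7.56% of all genes. grh, taken as an epidermal marker, fell from 69.1 and 64.6 RPKM in the control to 52.6 and 50.7 RPKM in dap and to 39.7 and 49.7 RPKM in dapCDI (limma adjusted p = 0.0426 and 0.0161). The epidermal genes kkv and knk, counted above with the cuticle genes, were not called in dap (−0.12 and 0.13, limma adjusted p = 0.392 and 0.212). Neither was called in dapCDI (−0.27 and −0.00, limma adjusted p = 0.0907 and 0.994). Mhc, a muscle myosin, fell in dap (log2 difference −0.31, adjusted p = 0.036), but not in dapCRL4, dapPCNA or dapCDI (0.07, 0.14 and 0.15). Mef2, the other muscle marker, was not called in dap (−0.13, limma adjusted p = 0.298). The neural genes elav and pros fell in dapCDI (−0.83 and −0.58, limma adjusted p = 0.0479 and 0.049). The neural genes n-syb and brp were not called there (−0.20 and −0.77, limma adjusted p = 0.246 and 0.066). The part of these markers in the yellow-d values was not tested. The level summed over the 13 ran from 1129 to 1517 RPKM over the libraries, and most of it was Mhc.

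The 5 tested genes outside the family whose log2 RPKM followed y most closely over the 10 libraries were Mst57Dc (Pearson's r = 0.985), CG34437 (0.985), Unc-115a (0.984), Ugt35a (0.981) and Unc-115b (0.981). All 5 lie on chromosome 3R, not on the X. Mst57Dc was listed at 0 in both controls and stood at 0.449 to 1.42 RPKM in the dacapo libraries. Its r thus rests largely on the deposited floor value of the controls. It passed the filter only through dapCRL4 2 (1.42 RPKM) and dapCDI 2 (1.13 RPKM). As a short gene (25829321 to 25829698), it has few reads behind these values. CG34437 stood at 2.33 and 2.42 RPKM in the control and 11.6 to 18.7 RPKM in the dacapo libraries. Unc-115b, next to Unc-115a in the genome, stood at 1.39 and 1.24 RPKM against 5.18 to 6.96 RPKM. In each of the 5, the control libraries were apart from all others, as for y, and these correlations mainly describe that split. They are given as a description of 10 libraries that share 1 control.

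Within the family, the highest Pearson's r of log2 levels over the 10 libraries was 0.80, for yellow-b and yellow-d2. It was 0.73 for yellow-c and yellow-d and 0.72 for y and yellow-d2, and the lowest was −0.49, for yellow-c and yellow-e3. The value of y and yellow-d2 takes in the split between control and dacapo libraries by which y was chosen. The libraries behind these values share genotype and depth, and the values are descriptions only.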

How the data were processed

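The deposited table held log2 of total RPKM for 15422 genes in 10 libraries, on build BDGP6, per the submitters' processing notes. The aligner was not given in the sources used here, nor were the counter, the annotation and the strand setting. A deposited floor of −9.10916 marks genes with no reads, listed here at 0. Low values matched whole reads when multiplied by coding length (87.4 to 88.8% of genes under 8 reads, within 0.03 reads), and only 10.3 to 12.3% did with exon length. RPKM thus appear to be per coding length, and depth and reads were recovered on that basis. Positions came from the Ensembl annotation of BDGP6, through current or older symbols.

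The 10396 genes that reached 1 RPKM in 2 or more libraries were fitted in limma 3.58.1 (R 4.3.3) with a mean-variance trend and 1 mean per genotype over all 10 libraries. Benjamini-Hochberg adjustment ran over all of them, with a threshold of 0.05, two-sided. Figures and summaries used Python 3.11.15. The procedure was also run on simulated data with normal noise, no floor values and shifts larger than those of yellow-d. That run does not bear on shifts as small as those reported here. Named genes were all members, dap, w, up to 3 called melanin genes per direction, the nearest neighbours of y, and the 5 genes most like y. Or1a, CG13551, verm, kkv, knk, the eye colour genes other than w, the marker genes and the tested neighbours were named after their values were seen. In the deposited table, Dat was taken as AANAT1 and laccase2 as stw. The members and lists were chosen with earlier results of these data known.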

Additional observations from a re-analysis of the deposited data

How the results depend on the processing

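Against the control, y differed by 1.47 (dap), 1.64 (dapCRL4), 1.61 (dapPCNA) and 1.88 (dapCDI) on log2(RPKM + 1), by 3.18, 3.41, 3.36 and 3.72 on log2(RPKM + 0.1), and by 5.38, 5.62, 5.62 and 5.98 after quantile normalization. Leaving out each library in turn gave 3.50 to 4.21, 3.74 to 4.45, 3.69 to 4.40 and 4.07 to 4.77. A filter at a mean of 5 RPKM removed y. For the other members against the control, 325 of 340 values from alternatives that kept all libraries moved by less than the replicate spread and 15 moved further. Many of the 325 could not move, since filter, mean-variance trend, replicate block and choice of groups leave a difference of group means unchanged. The count is thus no measure of stability. Removal of the exon length trend took yellow-c in dap from 0.24 to 0.09 and yellow-h in dap from 0.19 to 0.02. Without single libraries some signs turned, for example where yellow-f in dapCDI ran from −0.72 to 0.41, yellow-e3 in dap from −0.43 to 0.14, and yellow-e in dap from −0.23 to 0.18.

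Members called in dapCRL4 against dap numbered 1 (yellow-d) instead of 0 on both pseudocount scales, with no filter, with a mean of 5 RPKM, after quantile normalization, median centring or removal of the exon length trend, and among genes above 0 in every library. That last setting was chosen after seeing the data. Leaving out libraries gave 0 to 1 in dapCRL4, in dapPCNA and in dapCDI. In dapCDI, 0 members were called with no mean-variance trend and with only the groups compared. Among the stabilized forms 1 was called after removal of the length trend. Melanin genes called in dap numbered 3 instead of 2 with a mean of 5 RPKM, 1 with no filter, after removal of the length trend and under the replicate block, 0 without the mean-variance trend, and 0 to 4 without single libraries. In dapCRL4 there was 1 with no filter, and 0 to 1 without single libraries. In dapCDI there was 1 with no filter, a mean of 5 RPKM or median centring, and 0 to 7 without single libraries. In dapPCNA against dap there were 0 to 1. The cause was not tested.

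Replicate numbers did not pair the samples (correlations −0.0535 to 0.0894). With the replicate block, 1 member (yellow-d in dapCDI) stayed called against dap, and ple was no longer called in dap (limma adjusted p = 0.0521). Counts over all genes called ranged from 73 to 2236 in dap and from 82 to 2604 in dapCDI against the control when single libraries were left out, around 1227 and 786 with all libraries. y in the control and yellow-f and yellow-k throughout rest on few reads.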

Other observations

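The table listed 4 further yellow genes outside the 10 members. yellow-f2, which lies beside yellow-f on 3R and like it encodes a dopachrome-conversion enzyme, stood at 5.88 and 4.75 RPKM in the control and between 4.48 and 6.27 RPKM in the dacapo libraries. It thus lay above yellow-f in every library. Its difference from dap was −0.38 in dapCRL4 (95% interval −0.70 to −0.05, limma adjusted p = 0.292), which did not pass the threshold. yellow-e2, which lies between yellow-e3 and yellow-e on 3R, had levels close to theirs, from 2.23 to 3.4 RPKM. yellow-g and yellow-g2, a pair on 3L known for their role in the eggshell, were near the floor. yellow-g stood at 0.1 to 0.485 RPKM, and yellow-g2 was listed at 0 in 6 libraries and reached 0.0875 RPKM.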
